A study of Mus musculus with 5 samples.

Results

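Runx3-bound regions that lay 5 to under 50 kb from the nearest TSS and shared 0 bp with any H3K4me1-marked region were described in IL-2-activated CD8-TC (CD8+ T cells). They numbered 1125 of the 9135 Runx3-bound regions, or 12.3% (95% Wilson interval 11.7 to 13.0%). Within their distance class of 4150 regions they made up 27.1% (25.8 to 28.5%), and the other 3025 regions, which shared at least 1 bp with H3K4me1, served as the comparison and are called marked. The distance ran from the centre of a region to the nearest of 86803 annotated transcript start positions.

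Splenic CD8-TC of ICR mice, isolated on anti-CD8 beads, had been stimulated for 2 days through the T cell receptor with anti-CD3e and anti-CD28 and then kept in 100 u/ml IL-2 for 4 days. All 5 libraries came from such cells, 2 precipitated with polyclonal anti-Runx3 antibody, 2 with non-immune rabbit serum (NIS) and 1 with monoclonal anti-H3K4me1 antibody. No knockout or resting sample was analysed here. A single round of peak calling had been made for each antibody from the joined reads of its repeats, and the lists used here hold positions only. The regions therefore had no replicate error, no height and no read number behind each of them, p-values treat regions, not mice, as the units, and intervals cover counting error among regions only. Regions close to each other were counted as separate although they are not independent. With no expression values in the files, the labelled cell type was not checked against markers.

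Runx3 is a RUNX family transcription factor that binds DNA together with its partner Cbfb, and it shapes the cytotoxic program of CD8+ T cells. H3K4me1, the monomethylated lysine 4 form of histone H3, is abundant over enhancers. ETS factors often bind beside RUNX factors in lymphocytes. CTCF is a zinc finger protein known for its sites at the boundaries of chromatin loops, which need not carry enhancer marks.

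The sequences of the unmarked regions showed what most of them had in common, a RUNX motif near the centre. The motif was searched on both strands in 4 forms, with TGTGGT as the common one, TGTGGC as its variant, TGCGGT as the form with a CpG, and TGCGGC as the variant of that, in the central 200 bp of each region. Sequences below are from the plus strand of mm9 (NCBIM37). Capitals mark RUNX motifs, which read as their reverse complement, such as ACCACA, where the motif is on the minus strand. A region is named by the protein-coding gene with the nearest start, counting only the outermost start of each gene. An alternative start of another gene can therefore lie closer. The first set comes from regions named for genes of T cell function, each with 1 to 3 motifs in the central 200 bp. Other such regions, as near Cbfb and Tox, held 0 motifs there and are not shown. The set includes the CpG-containing form TGCGGT, for Eomes and Ptprc. The Zeb2 region lay 1254 kb from the start of its gene, and a start of Klrd1 lay closer to the Klrk1 region.
Il2ra, first region, chr2:11575187-11575207: ggtTGTGGTggctttccctgc
Il2ra, second region, chr2:11577064-11577104: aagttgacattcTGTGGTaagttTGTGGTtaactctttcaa
Fasl, chr1:163665193-163665230: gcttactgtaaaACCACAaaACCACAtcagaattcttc
Cd28, chr1:60812410-60812452: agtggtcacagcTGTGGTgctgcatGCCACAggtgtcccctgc
Klrk1, chr6:129558528-129558629: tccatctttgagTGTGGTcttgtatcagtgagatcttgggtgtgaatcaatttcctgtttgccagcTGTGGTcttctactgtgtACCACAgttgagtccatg
Ets1, chr9:32517963-32518049: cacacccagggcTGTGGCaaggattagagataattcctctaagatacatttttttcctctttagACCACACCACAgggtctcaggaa
Eomes, chr9:118397495-118397524: cggtgttccggcTGCGGTtggagcgggctc
Ptprc, chr1:140033159-140033269: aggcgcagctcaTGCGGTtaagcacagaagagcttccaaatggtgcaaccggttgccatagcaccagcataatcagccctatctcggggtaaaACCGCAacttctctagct
Zeb2, chr2:46226745-46226773: gctgagtcagtgACCACAtgaagggaaag

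The second set shows 3 of the 5 unmarked regions in which the motif was repeated most often, from an intron of Cdk14 (a cyclin-dependent kinase) and from intergenic sequence nearest to Prokr2 and Ywhah.
Cdk14, chr5:5374495-5374694: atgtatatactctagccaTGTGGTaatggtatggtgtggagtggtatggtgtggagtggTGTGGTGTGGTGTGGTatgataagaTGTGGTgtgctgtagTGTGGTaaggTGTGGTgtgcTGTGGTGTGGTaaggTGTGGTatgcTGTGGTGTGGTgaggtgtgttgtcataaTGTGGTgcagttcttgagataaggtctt
Prokr2, chr2:132307408-132307607: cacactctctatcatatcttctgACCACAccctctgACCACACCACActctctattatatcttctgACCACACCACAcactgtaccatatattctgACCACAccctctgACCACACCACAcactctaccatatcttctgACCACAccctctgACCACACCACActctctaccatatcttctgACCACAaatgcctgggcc
Ywhah, chr5:33383765-33383964: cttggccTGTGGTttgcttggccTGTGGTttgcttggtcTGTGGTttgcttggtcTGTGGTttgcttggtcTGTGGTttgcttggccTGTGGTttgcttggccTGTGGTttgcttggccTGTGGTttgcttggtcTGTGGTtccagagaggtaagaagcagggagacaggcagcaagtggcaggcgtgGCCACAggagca

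The third set shows unmarked regions that held a CTCF core beside a RUNX motif. Here capitals mark the CTCF core, a run of 12 bases, as well as RUNX motifs, and the last of them lay 13.9 kb upstream of the Ctcf gene itself.
Spp2, chr1:90353441-90353511: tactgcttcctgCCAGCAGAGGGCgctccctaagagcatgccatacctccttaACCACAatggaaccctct
Rbm19, chr5:120552929-120552969: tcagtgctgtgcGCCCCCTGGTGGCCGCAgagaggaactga
Ndufb6, chr4:40248282-40248343: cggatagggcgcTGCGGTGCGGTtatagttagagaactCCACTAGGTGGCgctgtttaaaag
Spesp1, chr9:62142983-62143026: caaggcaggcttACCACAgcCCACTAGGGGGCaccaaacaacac
Crtam, chr9:40852880-40852921: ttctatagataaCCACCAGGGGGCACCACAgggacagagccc
Ctcf, chr8:108146429-108146489: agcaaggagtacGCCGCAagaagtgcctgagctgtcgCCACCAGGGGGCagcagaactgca

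Distance from H3K4me1. The unmarked regions ranged widely in their distance from the mark. The gap to the nearest H3K4me1-marked region had a median of 22.2 kb, with quartiles of 2.38 and 80.5 kb, and ran from 0.007 to 5857 kb. H3K4me1 began within 1 kb in 221 of 1125 regions (19.6%, 17.4 to 22.1%), and in 43 of these it lay within 1 kb on both sides. In all, 264 regions (23.5%) lay under 2 kb from the mark and are called near, 151 (13.4%) lay between, and 710 (63.1%) lay 10 kb or more away and are called remote. The gap was 100 kb or more for 245 regions (21.8%) and 1 Mb or more for 35. The median gap was 36.7 kb for the 302 unmarked regions at 50 kb or more from a start, 9.33 kb for the 550 at 1 to 5 kb and 14.2 kb for the 1924 at under 1 kb.

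**Figure D1:**
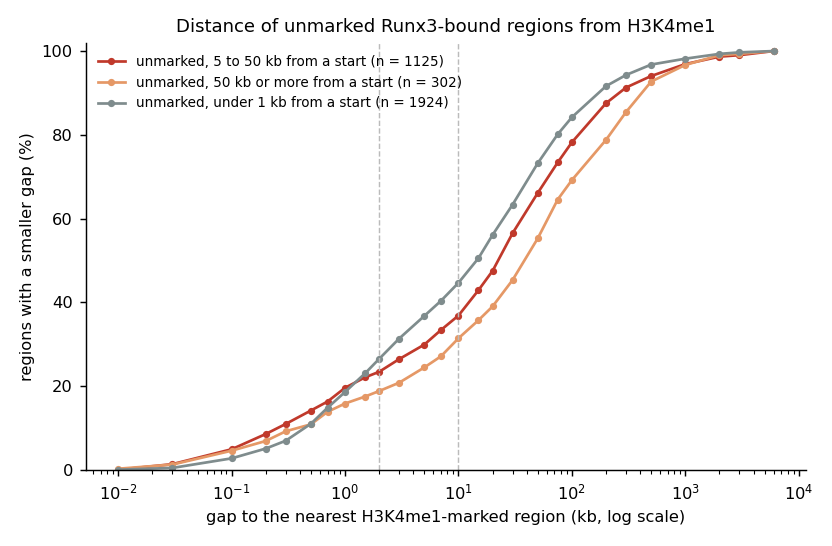
Cumulative percentage of unmarked Runx3-bound regions (y axis) with a gap to the nearest H3K4me1-marked region below the value on the log-scaled x axis in kb, for 3 distance classes, with dashed lines at 2 and 10 kb. Of the 1125 regions 5 to 50 kb from a start, 23.5% lay under 2 kb and 36.9% under 10 kb from the mark.

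H3K4me1 cover around the unmarked regions rose to the sides of the centre. It was 0% at the centre by the rule, 10.5% of regions at 1.25 kb to the left and 10.9% at 1.25 kb to the right, and 5.42% and 6.58% at 10 kb to either side. For the marked regions the corresponding values were 82.6% at the centre, 54.8% and 52.0% at 1.25 kb, and 14.0% and 13.8% at 10 kb. Thus the cover at 10 kb was also lower around the unmarked regions.

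The limits of the rule fell in a continuous range of values. The region nearest to the limit of 5 kb from inside lay 5.001 kb from a start, and the one nearest from outside 4.987 kb. At 50 kb the values were 49.937 kb inside and 50.084 kb outside. The member closest to H3K4me1, in an intron of Uso1, was 7 bp away, and the marked region with least sharing, in an intron of Mta3, shared 3 bp.

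Sequence of unmarked and marked regions. In the central 200 bp no difference in the share with a RUNX motif was detected between unmarked and marked regions, while the unmarked regions differed in the form of the motif and in its company. In the central 200 bp a RUNX motif was present in 916 of 1125 unmarked regions (81.4%, 79.0 to 83.6%) and 2452 of 3025 marked regions (81.1%, 79.6 to 82.4%), a difference of 0.36 percentage points (Newcombe 95% interval −2.37 to 2.96). Over all 9135 Runx3-bound regions the share was 78.8%. The test was a likelihood ratio test of a logistic regression, adjusted by Benjamini-Hochberg over a family of 27 features, and it gave an adjusted p of 0.85 for this motif. The comparison depended on the window. In the whole region the share was lower for unmarked regions, 91.0% against 93.9% (adjusted p of 0.0029), and in the central 100 bp it was higher, 59.6% against 55.7% (adjusted p of 0.049).

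The motif lay closer to the centre in the unmarked regions. Its density was 7.66 motifs per kb in the centre and 1.60 in the flanks, a ratio of 4.79, whereas the marked regions had 6.93 and 1.82 motifs per kb, a ratio of 3.82. The median distance of the nearest motif from the centre was 33 bp in unmarked and 40 bp in marked regions. These densities and distances were not tested. Every motif counts in the densities, so regions with many motifs weigh more. Regions with 5 or more motifs made up 2.31% of unmarked and 0.694% of marked regions. The median number of motifs in the central 200 bp was 1 in both groups, with means of 1.51 and 1.36. Among the unmarked regions 443 (39.4%) held 1 motif, 295 (26.2%) held 2, 133 (11.8%, 10.1 to 13.8%) held 3 and 45 (4.00%) held 4 or more. The corresponding shares of marked regions were 41.1%, 28.6%, 8.56% (7.62 to 9.61%) and 2.74%.

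**Figure D2:**
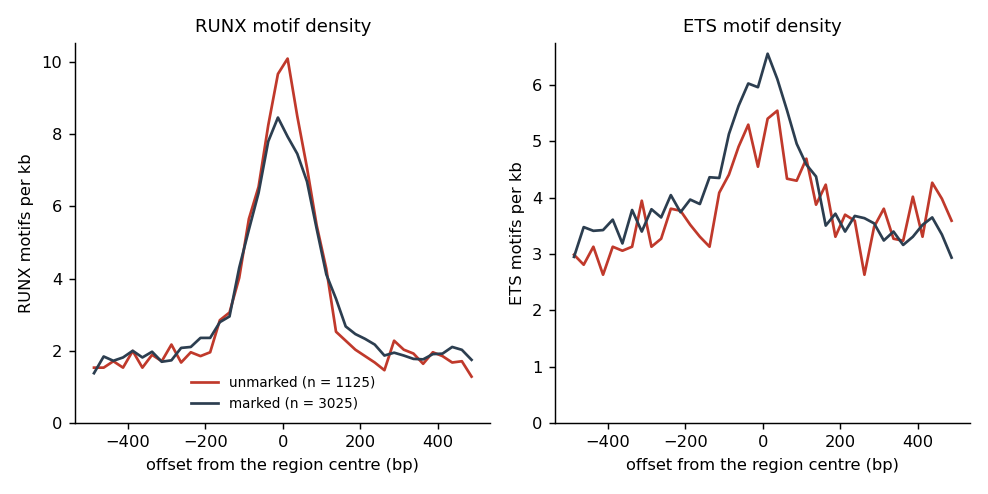
Density of RUNX (left) and ETS (right) motifs per kb (y axes) against the offset from the region centre in bp (x axes), for 1125 unmarked and 3025 marked regions 5 to 50 kb from a start. RUNX density peaked higher over the centre of unmarked regions and ETS density higher over that of marked regions. Every motif was counted, so regions with many motifs weigh more.

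The CpG-containing form of the motif was more frequent in unmarked regions. TGCGGT was found in 161 of 1125 unmarked (14.3%, 12.4 to 16.5%) and 265 of 3025 marked regions (8.76%, 7.80 to 9.82%), with an odds ratio of 1.74 and an adjusted p of 1.1e-06. TGCGGC was found in 5.69% and 3.83% (adjusted p of 0.027). The common form TGTGGT was found in 62.2% and 63.8%, a difference of −1.55 points (−4.88 to 1.73, adjusted p of 0.46), and TGTGGC in 26.4% and 29.7% (adjusted p of 0.072). TGTGGT was less frequent in unmarked regions past the threshold in whole regions, at 73.6% and 80.2% (adjusted p of 1.7e-05), and with 1 start per protein-coding gene, at 58.4% and 63.0% (adjusted p of 0.010). TGCGGT was present in 13.7% of all Runx3-bound regions. Among unmarked regions at other distances it was present in 14.5% of 550 at 1 to 5 kb from a start. At 50 kb or more its share was 8.94% of 302, near that of the marked regions at 5 to 50 kb.

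ETS motifs were less frequent in unmarked regions. An ETS motif, searched as NGGAAN with A or C at the first and A or G at the last place, was present in 668 of 1125 unmarked (59.4%, 56.5 to 62.2%) and 2068 of 3025 marked regions (68.4%, 66.7 to 70.0%), a difference of −8.99 points (−12.3 to −5.69, adjusted p of 2.8e-07). The share over all Runx3-bound regions was 66.1%. The density of ETS motifs in the centre over that in the flanks was 1.45 in unmarked and 1.72 in marked regions. The calls for TGCGGT and ETS were kept under each of the 12 alternative settings.

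Modules, in which both motifs lie within 50 bp of each other, did not follow one pattern. RUNX-RUNX modules were present in 32.7% of unmarked and 28.1% of marked regions (adjusted p of 0.00998). This call was lost with region width as a covariate (adjusted p of 0.075), in whole regions (0.98), with marked regions whose centre was covered (0.054) and with 1 start per protein-coding gene (0.21). ETS-RUNX modules were present in 37.9% and 41.4% (adjusted p of 0.073). They were less frequent in unmarked regions past the threshold with width as a covariate (adjusted p of 0.0094), in whole regions, at 52.3% and 60.5% (5.1e-06), and with 1 start per protein-coding gene (0.00080). AP-1-RUNX modules were present in 3.82% and 4.53% (adjusted p of 0.42).

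Motifs of other factors of activated T cells showed no difference past the threshold in the central 200 bp. AP-1, the dimer of Fos and Jun proteins induced by T cell receptor signals and searched as TGANTCA with C or G in the middle, was present in 6.67% of unmarked and 8.13% of marked regions, a difference of −1.47 points (−3.13 to 0.39, adjusted p of 0.18). In whole regions it was less frequent in unmarked ones, 13.1% against 16.6% (adjusted p of 0.0079). STAT motifs (TTCNNNGAA), bound by factors downstream of cytokine receptors, were present in 12.4% and 12.1%. GATA motifs (AGATAA) were present in 9.33% and 9.49%, E-boxes (CAGCTG) in 14.2% and 14.6%, IRF motifs in 4.09% and 4.03% and T-box motifs (AGGTGTGA) in 1.96% and 2.51%. GC-boxes (GGGCGG) were present in 7.11% and 5.52% (adjusted p of 0.11). The CRE motif (TGACGTCA) was found in 2 unmarked and 20 marked regions (adjusted p of 0.072), and an NRF1 motif in 1 and 0. Some of these motifs overlap in their letters, such as CRE and AP-1 with each other in part.

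CTCF cores. The CTCF core was rare but was the motif with the highest odds ratio of those with a fitted one. It was found in 30 of 1125 unmarked regions (2.67%, 1.87 to 3.78%) and 10 of 3025 marked regions (0.331%, 0.180 to 0.607%), with an odds ratio of 8.26 and an adjusted p of 1.3e-09, and the call was kept under all 12 alternatives. It was present in 81 of 9135 Runx3-bound regions (0.887%). Unmarked regions held 33 cores in their centres, against 2 in flanks of the same length, while marked regions held 10 and 6. In other distance classes it was found in 20 of 1924 unmarked regions under 1 kb from a start (1.04%), 11 of 550 at 1 to 5 kb (2.00%) and 6 of 302 at 50 kb or more (1.99%). It was found in 0 of 1029 marked regions at 1 to 5 kb, which allows a share of up to 0.372% (upper Wilson bound), and in 0 of 700 marked regions at 50 kb or more, which allows up to 0.546%.

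Of the 30 regions with a CTCF core, 26 (86.7%, 70.3 to 94.7%) lay 10 kb or more from H3K4me1, against 63.1% of all 1125 unmarked regions, and 25 (83.3%) held a RUNX motif, against 81.4%. Another Runx3-bound region within 10 kb was absent for 28 (93.3%, 78.7 to 98.2%). Such a neighbour was present for 21.5% of all unmarked regions, but for only 6.76% of those 10 kb or more from H3K4me1. An ETS motif was held by 14 (46.7%) and 18 (60%) were intergenic, against 59.4% and 53.4%. In these 25 regions the gap between the core and the nearest RUNX motif had a median of 24 bp (quartiles 8 and 38 bp, highest 164 bp), and in 1 of them the motifs overlapped by 1 bp. As printed above, in the region named for Crtam (a receptor of activated T and NK cells) the RUNX motif directly follows the core. This region lay in an intron of Ubash3b, with a start of Ubash3b closer. In the one named for Rbm19 the motifs share a base. The core lay 3 bp from the region centre near Spp2 and Rbm19, 4 bp near Ndufb6, 10 bp near Spesp1 and 11 bp near Crtam. The gap of these regions to H3K4me1 was 16.8, 21.1, 63.6, 159 and 27.0 kb, in the same order. The region upstream of Ctcf lay 2.09 kb from H3K4me1 and was chosen for mention after its values were seen. CTCF binding was not measured, so these are matches to letters only.

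**Figure D3:**
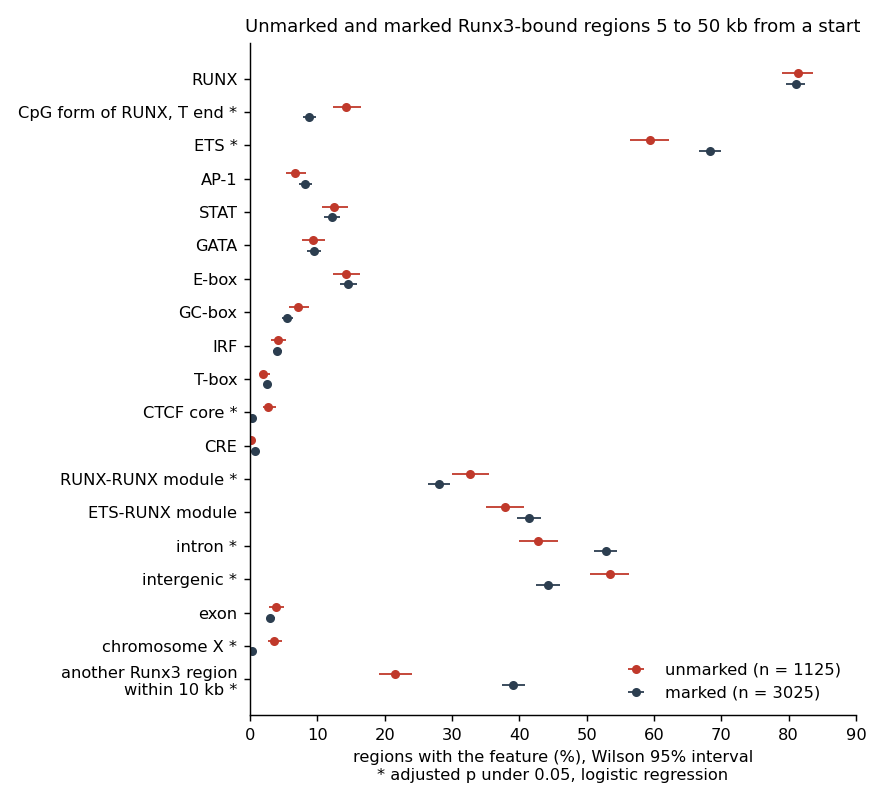
Percentage of regions with each feature (x axis, points) with Wilson 95% intervals (bars) in 1125 unmarked and 3025 marked Runx3-bound regions 5 to 50 kb from a start, with an asterisk where the adjusted p was under 0.05. RUNX shares coincide at 81.4% and 81.1%, while ETS, intron and neighbouring regions are lower and CTCF cores, intergenic position and chromosome X higher among unmarked regions.

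Width and base composition. Unmarked regions were narrower, with a median width of 458 bp (quartiles 372 and 557 bp) against 537 bp (445 and 648 bp), a mean difference of −0.23 ± 0.02 (SE) on the log2 scale (adjusted p of 3.6e-43, linear regression). A wider region has more room to touch a mark, and fits with width as a covariate kept the calls for TGCGGT (odds ratio 1.76), ETS (0.653) and the CTCF core (6.74). GC content of the central 200 bp was 48.8% and 48.9% on average (adjusted p of 0.69). The CpG ratio, the observed over the expected number of CpG, was higher in unmarked regions, 0.291 against 0.232 (adjusted p of 2.9e-14).

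Part of the difference in CpG ratio lay in a small set of CpG-rich windows, a feature added after the data were seen together with the 3 of the next paragraph. A CpG ratio of at least 0.6 with a GC content of at least 55% was found in 58 unmarked regions (5.16%, 4.01 to 6.61%) and 21 marked regions (0.694%), with an adjusted p of 2.0e-17. Of the 58, 46 were intergenic in the annotation, 24 held a GC-box, 38 a RUNX motif, 21 TGCGGT and only 7 TGTGGT. Unmarked regions under 1 kb from a start had CpG-rich windows in 64.8%, TGCGGT in 26.3% and TGTGGT in 25.1%. Without CpG-rich windows GC content differed by −0.833 percentage points, unmarked minus marked (adjusted p of 0.00016). The CpG ratio still differed by 0.034 (adjusted p of 2.7e-06) and TGCGGT kept an odds ratio of 1.62 (adjusted p of 6.7e-05).

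Repeated motifs and repeated sequence were also more frequent. RUNX motifs numbered 5 or more in 26 unmarked (2.31%) and 21 marked regions (0.694%), with an adjusted p of 4.3e-05, and 8 or more in 9 and 2 regions. The region in Cdk14 held 13 motifs in its central 200 bp, all TGTGGT on the plus strand, and lay 1266 kb from H3K4me1. The region nearest to Prokr2 held 12 and lay 27.1 kb from the mark. Windows that matched themselves at 80% or more of positions after a shift of 3 to 60 bp were found in 10 unmarked and 0 marked regions (adjusted p of 4.2e-07). The 3 other regions with most motifs held 10 each, of which the one nearest to Ywhah lay 0.861 kb from the mark and the one in an intron of Btbd9, nearest to Gm9874, matched itself at 93.5% of positions after a shift of 14 bp.

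Fewer than 50% of the 32-base words of a region occurred once in the genome in 27 unmarked (2.40%) and 4 marked regions (0.132%, adjusted p of 3.8e-12). Only uniquely aligned reads had been used for both antibodies. In the Cdk14 region all such words were unique, while in the Ywhah region 64.1% were. The widest unmarked regions, of 5018 and 2024 bp on chromosome 8, had 18.9% and 17.7% unique words and lay 257 and 312 kb from H3K4me1. The next in width were named for Ifngr2 (1396 bp), Usp20 (1328 bp) and Mcl1 (1226 bp), with 97.4%, 94.7% and 94.3% unique words. The Usp20 region lay in an intron of Fnbp1. The part of unique alignment in the absence of the mark was not tested, and without these 27 and 4 regions the calls for TGCGGT, ETS and CTCF were kept.

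Position in the genome. Unmarked regions were more often intergenic and less often intronic than marked ones. They lay in intergenic sequence in 601 cases (53.4%) against 44.2% of marked regions (adjusted p of 4.1e-07), in introns in 481 cases (42.8%) against 52.8% (adjusted p of 3.9e-08), and in exons in 43 cases (3.82%) against 3.01% (adjusted p of 0.29). Of the 43 in exons, 23 were in coding exons and 13 in UTRs. The nearest start belonged to a protein-coding gene for 75.1% of unmarked and 76.3% of marked regions, and to a pseudogene for 6.84% and 4.33%. The unmarked share changed little with distance, at 29.2% (26.7 to 31.8%) from 5 to 10 kb, 26.1% (23.9 to 28.4%) to 20 kb, 26.9% (24.3 to 29.7%) to 35 kb and 25.3% (21.6 to 29.4%) to 50 kb, with intervals that overlap.

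Unmarked regions had a Runx3-bound neighbour less often. Another Runx3-bound region lay within 10 kb of 242 unmarked regions (21.5%) and 1182 marked regions (39.1%), with a difference of −17.6 points (−20.5 to −14.5), an odds ratio of 0.427 and an adjusted p of 2.0e-26. A marked neighbour was present for 151 unmarked regions (13.4%) and for 1042 marked regions (34.4%). The outcome is in part fixed by the rule, since a region far from H3K4me1 has no room for a marked neighbour nearby. Of the 710 remote regions, 0 had a marked neighbour within 10 kb.

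Chromosome X stood apart. On it 40 of the 50 regions of the distance class were unmarked (80%, 67.0 to 88.8%), against 1085 of 4100 on the autosomes (26.5%, 25.1 to 27.8%), and the single autosomes ranged from 20.6% to 33.0%. The share of regions on X was 3.56% of unmarked and 0.331% of marked regions (odds ratio 11.1, adjusted p of 2.9e-14). Only 53 H3K4me1-marked regions were called on X in all, against 504 on the autosome with fewest, and 93 of 9135 Runx3-bound regions lay on X. Closer than 5 kb to a start, 36 of 40 Runx3-bound regions on X were unmarked (90%), against 61.8% on the autosomes. Of the 40 unmarked regions on X, 34 held a RUNX motif (85.0%), 28 ETS (70%) and 4 TGCGGT, and 33 lay 10 kb or more from the mark (82.5%, 68.1 to 91.3%), against 63.1% of all 1125. With the autosomes alone, odds ratios were 1.76 for TGCGGT, 0.666 for ETS and 8.55 for CTCF, and the calls were kept. The cause of the low number of H3K4me1-marked regions on X was not tested.

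**Figure D4:**
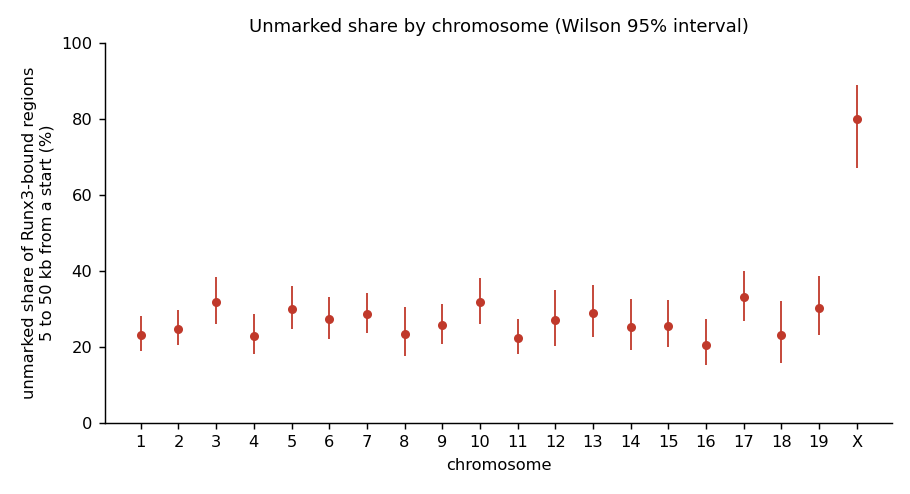
Unmarked share of the Runx3-bound regions 5 to 50 kb from a start (y axis, %) with Wilson 95% intervals (bars), by chromosome (x axis). The autosomes lie between 20.6% and 33.0% and chromosome X at 80%.

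Near and remote unmarked regions. The 264 near regions, under 2 kb from H3K4me1, were compared with the 710 remote ones, and 7 of 26 features passed the threshold. A RUNX motif was present in 197 near (74.6%, 69.0 to 79.5%) and 593 remote regions (83.5%, 80.6 to 86.1%), a difference of −8.90 points (−15.0 to −3.23, adjusted p of 0.013). The call was lost in whole regions, at 87.9% and 91.7% (adjusted p of 0.17). TGTGGT was present in 55.3% and 64.4% (adjusted p of 0.049), a call lost in 3 of 4 alternatives. TGCGGT was present in 10.6% and 16.3% and ETS in 66.3% and 58.2% (adjusted p of 0.054 for both). For these features the near values lay closer to those of the marked regions, 8.76% and 68.4%. For RUNX and TGTGGT it was the remote values that lay closer to the marked ones, 81.1% and 63.8%.

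The CTCF core was found in 0 of 264 near regions, which allows a share of up to 1.43%, and in 26 of 710 remote regions (3.66%, 2.51 to 5.31%), with an adjusted p of 0.00057. Near regions were wider, by 0.11 ± 0.04 (SE) on the log2 scale (adjusted p of 0.011). Introns held 48.9% of near and 40.0% of remote regions and chromosome X 1.52% and 4.65% (adjusted p of 0.049 for both), and each call was lost in 3 of the 4 alternatives. Another Runx3-bound region within 10 kb was present for 48.1% of near and 6.76% of remote regions (adjusted p of 4.5e-44), but a remote region cannot have a marked neighbour at that distance. Marked neighbours were found for 96 near regions (36.4%) and 0 remote ones. An unmarked neighbour, with or without a marked one, was found for 56 near regions (21.2%, 16.7 to 26.5%) and 48 remote ones (6.76%, 5.14 to 8.85%).

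**Figure D5:**
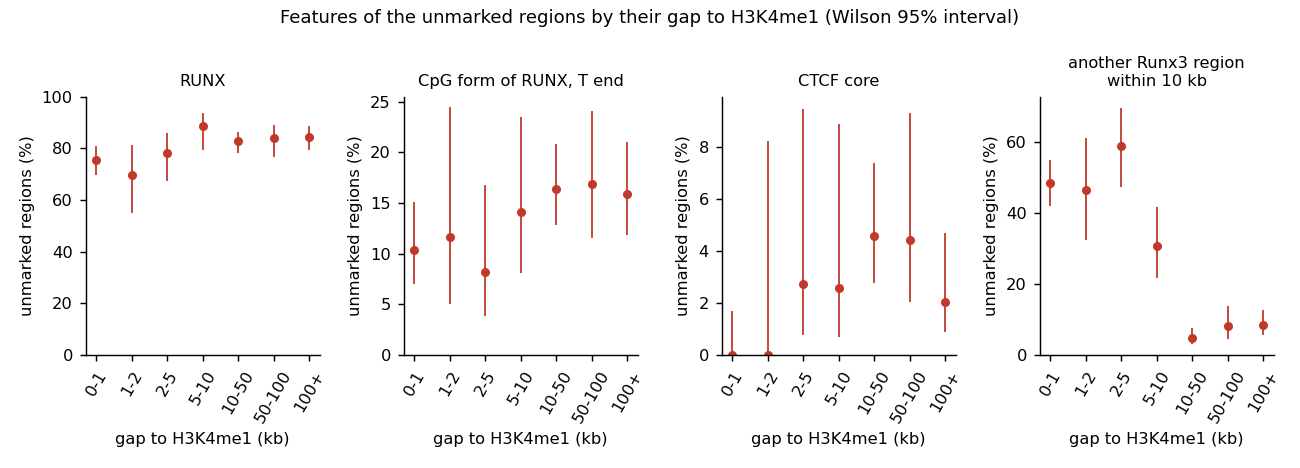
Percentage of the unmarked regions (y axes) with a RUNX motif, the CpG-containing form of it that ends in T, a CTCF core or another Runx3-bound region within 10 kb, by the gap to H3K4me1 in kb (x axes), with Wilson 95% intervals. CTCF cores were found at 0 of 264 regions under 2 kb. Neighbours were present for 48.4% under 1 kb, 58.9% at 2 to 5 kb, 30.8% at 5 to 10 kb and 4.86% at 10 to 50 kb. The share was 8.09% at 50 to 100 kb. Of the 710 regions at 10 kb or more, 0 had a marked neighbour.

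Unmarked regions farther from starts. The 302 unmarked regions at 50 kb or more from a start were like the 1125 in most features, and 6 of 27 passed the threshold. RUNX motifs were present in 81.4% and 82.5% (difference −1.03 points, −5.57 to 4.14), ETS in 59.4% and 60.6% (−1.22 points, −7.30 to 5.07) and CTCF cores in 2.67% and 1.99% (0.68 points, −1.73 to 2.23). TGCGGT was more frequent at 5 to 50 kb, 14.3% against 8.94% (adjusted p of 0.049), as were exons, 3.82% against 0.662% (adjusted p of 0.0063), and chromosome X, 3.56% against 0.331% (adjusted p of 0.0043). GC content was higher by 1.58 ± 0.41 percentage points (SE, adjusted p of 0.0026) and the CpG ratio by 0.044 ± 0.013 (SE, adjusted p of 0.0055). Intergenic sequence held 53.4% and 63.9% (adjusted p of 0.0063).

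Genes near the unmarked regions. For each region the nearest start of a protein-coding gene was taken. The 1125 unmarked regions named 1025 of 22208 protein-coding genes (4.62%), and the marked regions of the class named 2019 (9.09%). Both kinds named 281 genes. For 657 of the 1025 genes (64.1%) no marked Runx3-bound region at any distance had the gene as nearest. One unmarked region was nearest to each of 934 genes, 2 to 82 genes and 3 to 9 genes. The nearest gene need not be a target. For 237 unmarked regions (21.1%) the nearest outermost start of a protein-coding gene lay 50 kb or more away. Their closer start was of another gene type or an alternative start of a protein-coding gene. The Ets1 region, for example, lay 74.2 kb from the outermost start and 14.4 kb from another start of Ets1.

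Lists of genes of T cell function, counted together with a list of B cell and myeloid markers, held unmarked regions in part. Of 166 listed genes found in the annotation, 28 (16.9%) were nearest to an unmarked region, with 36 regions in all, and 85 (51.2%) to a marked region of the class, beside 4.62% and 9.09% of all protein-coding genes. Listed genes had marked regions more often than unmarked ones in each list but that of B cell and myeloid genes, and 16 had both. These shares carry no test and do not allow for the length of intergenic sequence around each gene.

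Among the transcription factors of T cell lineage and differentiation, 8 of 26 genes had an unmarked region. Eomes, the T-box factor of cytotoxic memory cells, had 9 Runx3-bound regions, of which 7 were marked and 2 were unmarked, the latter 10.2 and 11.5 kb downstream of its start and 62.5 and 63.9 kb from H3K4me1. Cbfb, the partner of RUNX proteins, had a single region, unmarked, 13.0 kb upstream of its start, with 0 motifs in the central 200 bp and 1 in the whole region. Bcl11b, a factor of T cell commitment, had 1 unmarked region in an intron, 1.46 kb from the mark. Id2, an inhibitor of E proteins, had 11 regions of which 10 were marked, and its unmarked one lay 606 kb upstream. Foxo1 (24.6 kb upstream), Tox (an intron, 0 RUNX motifs in the whole region), Zeb2 (1254 kb upstream, with an AP-1 motif next to its RUNX motif) and Runx2 (305 kb upstream) had 1 each.

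The ETS family had unmarked regions near 4 of 11 genes. Ets1, an abundant T cell factor, had 11 Runx3-bound regions with 10 marked, and the unmarked one in its intron held 6 RUNX motifs over its 627 bp and lay 0.135 kb from H3K4me1. Ets2 had 2 unmarked regions, 43.0 kb upstream and 125 kb downstream of its start, with gaps of 59.5 and 0.243 kb. Elf2, with 1 region in all, and Elf4, on chromosome X, had 1 unmarked region each. Of the 15 AP-1, BATF and IRF genes, 0 had an unmarked region and 8 had a marked one.

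Receptors and effector genes followed. Il2ra, the alpha chain of the receptor for the IL-2 in the culture, had 3 Runx3-bound regions, of which 2 were unmarked and lay in an intron 10.9 and 12.7 kb downstream of the start, 0.55 and 0.78 kb from H3K4me1. Il12rb2 and Tgfbr2 were the other members among 25 cytokine receptor and JAK-STAT genes. Of the 14 cytotoxic effector genes, Fasl, the death ligand, had 3 unmarked and 5 marked regions, and Gzmb, the protease of cytotoxic granules, 1 and 6. The unmarked Fasl regions lay 21.1 kb upstream and 53.4 and 81.2 kb downstream of the start, with gaps of 0.144, 5.41 and 0.35 kb. The Gzmb region lay 14.0 kb upstream and 48.5% of its words were unique.

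Of the 17 costimulatory and inhibitory receptors, Cd28, Cd226, Tigit and Klrk1 had unmarked regions. Cd28, the receptor engaged in the culture, had 2 that lay in its intron 0.665 and 0.087 kb from H3K4me1. Klrk1, which encodes NKG2D, had 1 unmarked region with 4 RUNX motifs, 0.132 kb from the mark, and 0 marked regions. A start of Klrd1, another listed gene, lay closer to that region, at 12.0 kb against 15.3 kb. Tigit, an inhibitory receptor, had 1 in an intron, 0.066 kb from the mark. Among T cell receptor signalling genes 2 of 17 had one, namely Prkcq, the kinase PKC theta, and Ptprc, the phosphatase CD45, with gaps of 0.777 and 0.083 kb. Homing genes with unmarked regions were Ccr2, with 2, Cxcr4 and Itgb7 (3 of 17). The survival factor Mcl1 was 1 of 12, with a start of Adamtsl4 closer to its region (8.02 kb against 10.4 kb). Of 12 B cell and myeloid genes only Emr1, the macrophage marker F4/80, had an unmarked region, 22.8 kb upstream and 42.8 kb from the mark, and 1 had a marked one.

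The genes with most unmarked regions had 3 each. They were Arid5b (a chromatin-associated factor), Ccdc160, Cdk17, Cdk6 (a cell cycle kinase), Fasl, Gm9874, Jmjd1c, Klhl25 and Lfng (a glycosyltransferase of the Notch pathway). The 3 near Ccdc160 on chromosome X lay 4263, 4266 and 4325 kb from H3K4me1, and this gene had 0 marked regions. The 3 near Cdk6 had 52.9%, 44.2% and 59.0% unique words. The 3 near Lfng lay within 11 kb of its start, 0.545, 0.124 and 0.048 kb from the mark, and it had 1 marked region.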

How the data were processed

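Runx3 and H3K4me1 were measured by ChIP-seq. Per the labels and the study's methods, the authors aligned reads to mm9 with ELAND, kept unique reads, joined repeats and called peaks with MACS against joined NIS reads, the larger set scaled to the smaller. The deposited values were start and end positions of 9135 Runx3 and 18992 H3K4me1 peaks, with no score. The H3K4me1 list may rest on 1 library, as labelled, or on 2, as the protocol has it. Read depth is not part of the lists and was not used here. The study's methods give fewer reads for NIS and both antibodies in these cells than in resting CD8-TC. They also give more reads for H3K4me1 than for NIS. The effect of depth on which regions count as unmarked was not tested.

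Distances used GENCODE vM1 starts and motifs the NCBIM37 sequence, both strands, central 200 bp. The IRF, NRF1 and CTCF core motifs were fixed letter patterns. Yes/no features were tested by logistic regression and width, GC and CpG ratio by linear regression with robust errors, adjusted over each family by Benjamini-Hochberg. Scripts were tested on simulated data. Members and gene lists were chosen with earlier results of these data known. Named regions were those nearest to listed genes, with most RUNX motifs, widest, at the limits of the rule, with CTCF cores nearest the centre, and the genes with most regions. All 9 tied genes were named, as were regions near listed genes past the 30 that the rule allows. Adgre1 and Spi1 were not found under these symbols. Tools were pysam 0.24.0, numba 0.67.0, SciPy 1.17.1, NumPy 2.4.6, pandas 2.3.3 and Python 3.11.15.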

Additional observations from a re-analysis of the deposited data

How the results depend on the processing

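Of 254 values computed under alternative settings, 223 kept their direction and side of the threshold or stayed within 1.5 times. Of the rest, 11 passed the threshold newly, 14 no longer passed it, 2 reversed and 4 moved further. The 223 include values that could not change. Position, neighbours, width, GC content and CpG ratio did not depend on the motif window. Their values were therefore repeated for whole regions and the central 100 bp. The reversed values were the odds ratio for a RUNX motif in whole regions, 0.657, and the mean difference in GC content with 1 start per protein-coding gene, 0.904 percentage points. With 1 start per protein-coding gene, 17 instead of 11 features differed between unmarked and marked regions. Between near and remote regions 7 features passed, against 4 for gaps under 1 kb and of 20 kb or more, 3 in whole regions, 4 without internally repeated windows and 10 without regions under 50% unique words, the last pair chosen after seeing the data. The causes were not tested. The number of unmarked regions was 904 with H3K4me1-marked regions widened by 1 kb, 1504 where a mark over at least 50% of the region was required, 1218 with 1 start per protein-coding gene and 769 from 10 to 50 kb. With starts of any gene type, 1005 genes were nearest. The comparison with unmarked regions at 50 kb or more had no alternatives. No paired analysis was possible because peaks had been called on joined repeats, and for the same reason no replicate could be left out. Regions without peak height cannot show how strongly Runx3 bound, and weak H3K4me1 below the calling threshold cannot be told from its absence.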
